A study of Mus musculus with 6 samples.

Results

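Histone lysine acetylation is written by acetyltransferases, removed by deacetylases and read by bromodomains. The genes described here are those with symbols of the Hdac, Sirt, Kat and Brd series (including Brdt), together with Ep300 and Crebbp. They were picked by a rule on names alone, set with earlier results of these data known, and numbered 40 of 53700 gene rows. Of these, 35 passed the filter on low counts and entered a test of 16473 genes.

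RNA with a poly(A) tail was sequenced from pools of 10 fully grown mouse oocytes at the germinal vesicle (GV) stage, which are arrested in meiotic prophase. The groups were Zar1 knockout oocytes (KO, labelled Zar -/-) and wild-type oocytes (WT, labelled Zar +/+), both of the C57BL/6N background, with 3 libraries each. ZAR1 binds RNA and is made in oocytes, and the study deals with mRNA storage at mitochondria. The sources used here do not give the deleted part of Zar1, the age of the mice or the number of animals behind a pool.

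GV oocytes approach transcriptional silence as they finish growth, so their transcriptome is largely a maternal store. Acetylation of core histones is high in the GV nucleus and is removed by deacetylases when meiosis resumes, a step that mouse oocytes need for accurate chromosome segregation. Many of the same enzymes also act on proteins outside chromatin, tubulin and mitochondrial enzymes among them.

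Levels are CPM, gene counts divided by library size and scaled with TMM factors, relative to the other polyadenylated RNA of a library, and no external standard was used. Each pool held the same number of oocytes, and less RNA per oocyte cannot be told apart from fewer oocytes recovered. The labels number the pools as biological replicates but name no animals, so the p-values cover only the variation from pool to pool, which may be technical. Gene counts per library ran from 35066851 to 37946223 in KO and from 32126555 to 39148833 in WT. Zar1 itself had 69, 96 and 226 counts in KO libraries and 15245, 13612 and 12810 in WT libraries (log2 fold change -6.75 ± 0.36 SE, edgeR adjusted p = 1.15e-05). All 12 oocyte markers were detected, with 7 higher and 2 lower in KO and a summed level of 18851 to 20756 CPM in KO and 17025 to 18256 CPM in WT. The 12 granulosa and cumulus markers summed to 120 to 130.2 CPM in KO and 103 to 115 CPM in WT. Nr5a2 (77.9 CPM in KO, 51.8 in WT, called higher) and Cyp19a1 (42.9 CPM in KO, 47.8 in WT, not called) made up most of that sum, and Kitl was called lower (0.797 CPM in KO, 4.02 in WT). Theca markers summed to at most 3.35 CPM and blood markers to at most 2.28 CPM in any library, with Hba-a1 and Hbb-bs at 0. Pdgfra of the theca and stroma list was called lower (0.0471 CPM in KO, 0.660 in WT). The part of these differences in the results below was not tested.

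As a group the 40 genes took a similar share of the transcriptome in both genotypes, 0.288% to 0.316% of counts in KO and 0.295% to 0.314% in WT. Their summed level was 3086 ± 143 CPM in KO and 2987 ± 66.9 CPM in WT (mean ± SD, n = 3 each, as for all levels below). Of the 35 tested members, 10 passed the threshold, 28.6% of them, against 33.4% of all tested genes. In KO 5 were higher and 5 lower, where 14.9% of all genes were higher and 18.5% lower. The KO and WT libraries did not overlap in 16 members, 45.7% of the 35, and in 47.8% of all genes. Every KO library lay above every WT library in 11 members (31.4%) and in 22.2% of all genes, and below in 5 members (14.3%) and in 25.5% of all genes. The shares that passed the test were near or below those of all genes, and the share of members with KO above WT throughout was higher than over all genes. Among the 29 members with a mean of at least 5 CPM, 10 passed (34.5%), against 43.8% of genes at that level. There every KO library lay above every WT library in 34.5% of members and 28.0% of genes, and below in 17.2% and 29.3%. The median log2 fold change was 0.16 over the 35 members and 0.01 over all tested genes.

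The 5 lower genes were the MYST acetyltransferases Kat6a, Kat6b and Kat7, the NuA4 subunit Brd8 and the deacetylase Sirt1. The 5 higher genes were the deacetylases Sirt2 and Hdac6, the desuccinylase Sirt5, the acetyltransferase Kat8 and the scaffold gene Brd1. Sirt2 was the only member whose change passed a test against a 1.5-fold difference (edgeR adjusted p = 0.0158). Unless another test is named, adjusted p-values are from edgeR's quasi-likelihood test with Benjamini-Hochberg adjustment over all 16473 genes.

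**Figure D1:**
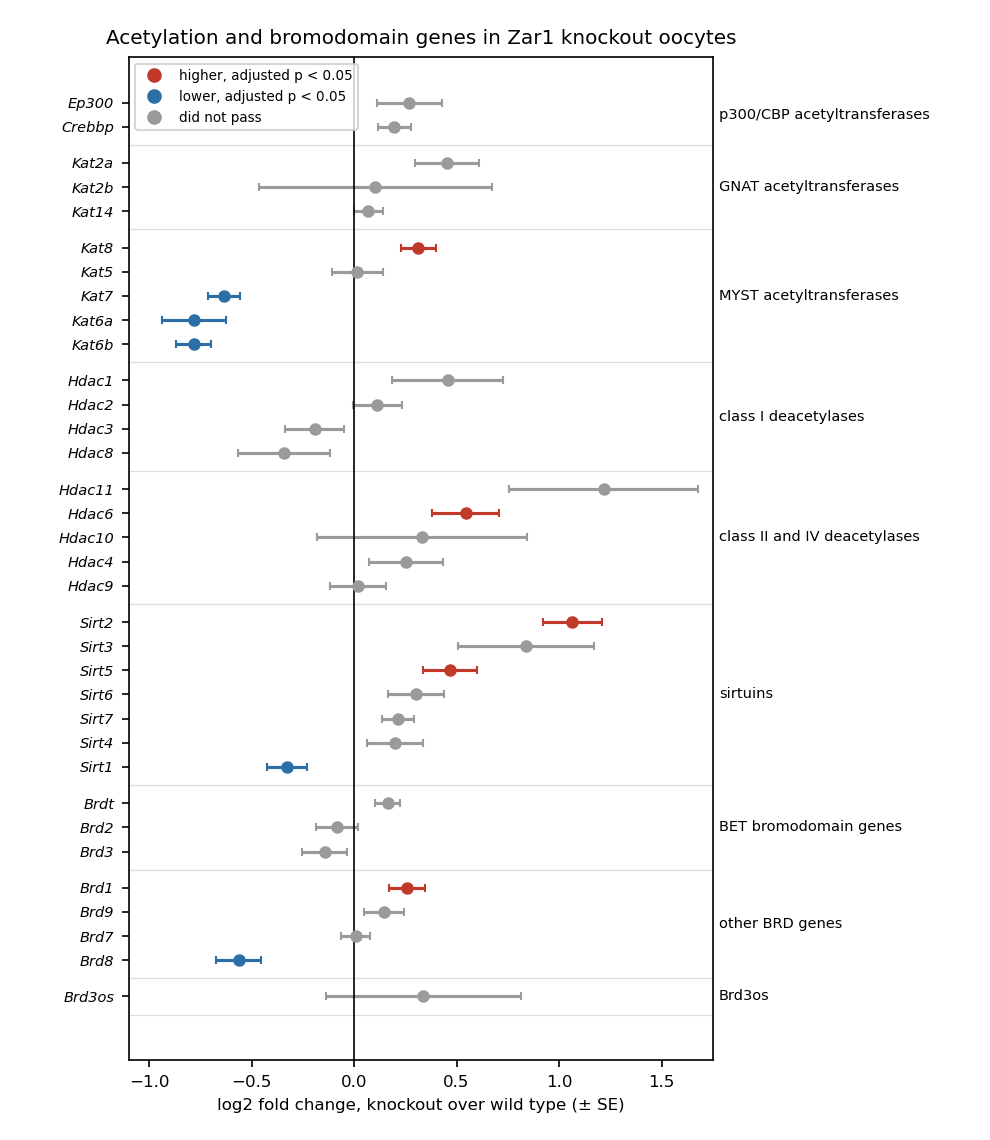
Log2 fold change of KO over WT with its standard error (x axis) for 34 tested members, grouped by role (y axis). Red points passed the test as higher in KO and blue points as lower, and 3 of the 5 blue points are MYST genes.

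Since stored oocyte mRNAs are handled through their 3′ ends, the last part of the 3′ UTR is shown for the members that passed, 30 bases each, as DNA letters from the GENCODE M21 transcripts (build GRCm38). Capitals mark the polyadenylation signal (AATAAA or ATTAAA) found within the last 50 bases. For Sirt1 they mark instead a cytoplasmic polyadenylation element (TTTTAT), the motif bound by CPEB1. Brd8 and Kat8 are named only.
Kat6a, lower: taacataaaaaaAATAAAttatgttgagcc
Kat6b, lower: attttaacataaAATAAAttatgatgagcc
Kat7, lower: ctgtatctactcAATAAAgcatgttctctg
Sirt1, lower: acaaaaacagtgTTTTATacttgtatcttg
Sirt2, higher: tattagaaacaaATTAAAaaacaaaacaaa
Sirt5, higher: cagaaaaagagaATTAAAaccctgaaagtt
Hdac6, higher: gtcagcatatttAATAAAgttggagttgct
Brd1, higher: tagaaacttgaaAATAAAaagtcttccttt
The paralogs Kat6a and Kat6b share 21 of these 30 bases position by position, and 17 of the 18 bases from the signal onwards. Sirt1, Sirt2 and Sirt5 carry the ATTAAA variant of the signal, which for Sirt1 lies outside the stretch shown.

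The MYST family gave the most calls of any role, with 1 of 5 members higher, 3 lower and 1 not passing, where 33.4% of all tested genes were called. MYST enzymes sit in multi-subunit complexes that acetylate histones H3, H4 and H2A.Z. Their summed level was 361 ± 9.99 CPM in KO and 465 ± 9.59 CPM in WT, with every KO library below every WT library.

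Kat6b (ENSMUSG00000021767), which encodes the H3 acetyltransferase MORF, had 102, 109 and 119 CPM in KO libraries and 184, 202 and 180.2 CPM in WT libraries. The 2 groups were far apart, with the highest KO library well under the lowest WT library. The level was 109.7 ± 8.47 CPM in KO and 189 ± 11.7 CPM in WT, a 1.72-fold decrease (log2 fold change -0.78 ± 0.09, adjusted p = 0.000244). Kat6a (ENSMUSG00000031540), which encodes its paralog MOZ, had 30.5, 34.2 and 47.3 CPM in KO and 68.8, 62.2 and 61.5 CPM in WT. KO replicate 3 was the highest of its group and still below every WT library. The log2 fold change was -0.78 ± 0.15 (adjusted p = 0.00494), the same size as for Kat6b.

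Kat7 (ENSMUSG00000038909) encodes HBO1, the H3 and H4 acetyltransferase linked to replication origins. It had 46.7, 47.2 and 50.9 CPM in KO and 75.1, 74.5 and 75.4 CPM in WT. The WT libraries lay very close together (75.0 ± 0.460 CPM), and the KO mean of 48.3 ± 2.29 CPM was 1.55-fold lower (log2 fold change -0.64 ± 0.08, adjusted p = 0.000491). Kat6a, Kat6b and Kat7 each lost their call under 1 of the 17 alternative settings, the test against a 1.5-fold change (adjusted p = 0.226, 0.0579 and 0.459).

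Kat8 (ENSMUSG00000030801), which encodes MOF, the enzyme for lysine 16 of histone H4, went the other way. It had 153, 155 and 131 CPM in KO and 114, 116 and 123 CPM in WT. The lowest KO library was just above the highest WT library, and the log2 fold change was 0.31 ± 0.09 (adjusted p = 0.0222). This call rested on each of several libraries, with an adjusted p of 0.0587 without KO replicate 1, 0.0542 without KO replicate 2, and 0.0893, 0.0799 and 0.0564 without WT replicates 1, 2 and 3. With the replicate number as a block it was 0.051. Of its annotated exon bases, 4.22% overlap Prss8 on the opposite strand, and the sources used here do not say whether counting used strand. Kat5, which encodes TIP60, the catalytic subunit of NuA4, had 19.4 ± 1.68 CPM in KO and 19.2 ± 1.49 CPM in WT (log2 fold change 0.02 ± 0.13, adjusted p = 0.936). The difference was far smaller than the spread between libraries. Exons of Kat5 overlap those of Rnaseh2c on the opposite strand, by 12.1% of its bases.

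**Figure D2:**
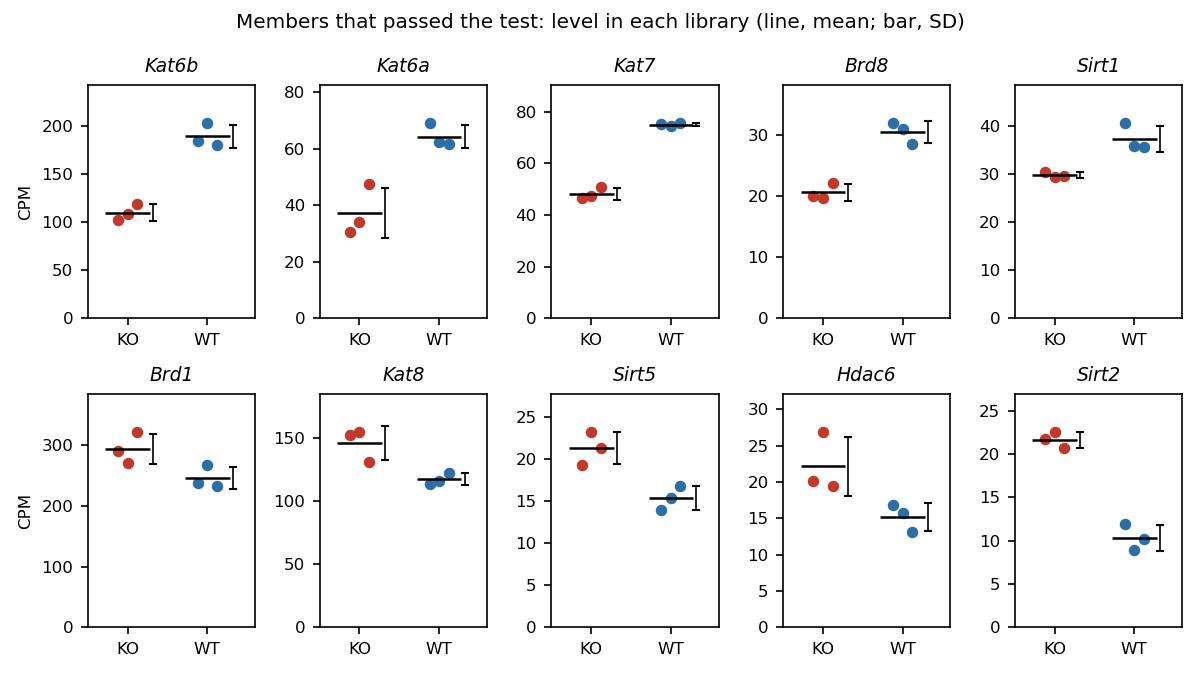
Level in CPM (y axes, from 0) of the 10 members that passed, in each KO library (red) and each WT library (blue), with the mean as a line and the SD as a bar. In every panel the KO and WT points do not overlap, with the smallest gaps relative to their level in Brd1 and Kat8.

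Neither p300/CBP gene passed, and both encode broad coactivators that acetylate histone H3 at enhancers and promoters. Crebbp had 222, 205 and 207 CPM in KO and 173, 180.0 and 201 CPM in WT, so that KO lay above WT in every library by a small margin (log2 fold change 0.19 ± 0.08, adjusted p = 0.0940). Ep300 had 72.1, 99.8 and 78.9 CPM in KO and 84.4, 65.4 and 58.4 CPM in WT. Its groups overlapped (log2 fold change 0.27 ± 0.16, adjusted p = 0.229).

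The GNAT family also had no call among its 3 members. Kat14, an acetyltransferase gene of the ATAC complex, was its most abundant member at 277 ± 14.8 CPM in KO and 264 ± 4.12 CPM in WT (log2 fold change 0.07 ± 0.07, adjusted p = 0.474). Of its annotated exon bases 14.7% are shared with Pet117 on the same strand, which makes its count uncertain. Kat2a, which encodes GCN5, the acetyltransferase of SAGA and ATAC, had 24.6, 25.8 and 36.0 CPM in KO and 20.3, 22.1 and 20.6 CPM in WT. All KO libraries lay above all WT libraries, with KO replicate 3 far above its group, and the adjusted p was 0.0510 (log2 fold change 0.45 ± 0.16). It passed in 6 of 17 alternatives, DESeq2 among them (adjusted p = 0.0185). Its paralog Kat2b, which encodes PCAF, was close to the detection limit at 0.434 ± 0.0981 CPM in KO and 0.398 ± 0.262 CPM in WT.

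Among the erasers, 3 of 16 tested genes were higher, 1 was lower and 12 did not pass, so that 25% were called, against 33.4% of all tested genes. Together the eraser genes summed to 269 ± 5.95 CPM in KO and 235 ± 3.48 CPM in WT, while the writers summed to 962 ± 28.8 CPM in KO and 1004 ± 7.08 CPM in WT. The groups did not overlap in the first sum, with KO above WT, nor in the second, with KO below WT. Among the writers only the MYST sum was lower in KO (361 CPM in KO, 465 in WT). The p300/CBP sum was higher without overlap (295 CPM in KO, 254 in WT). The GNAT sum was higher with overlap (306 CPM in KO, 285 in WT). A positive log2 fold change was seen in 7 of 10 writers and 13 of 16 erasers. The eraser difference did not extend to the class I sum (56.8 CPM in KO, 57.2 in WT).

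The class I deacetylases, which drive most removal of acetyl groups from core histones, had no call among 4 genes. Hdac2, the class I enzyme that mouse oocytes depend on most, was the leading one, with 30.1, 31.1 and 36.3 CPM in KO and 26.8, 32.2 and 31.1 CPM in WT. The groups overlapped (log2 fold change 0.11 ± 0.12, adjusted p = 0.508). Its paralog Hdac1 had 3.91 ± 0.555 CPM in KO and 2.85 ± 0.799 CPM in WT (0.46 ± 0.27, adjusted p = 0.227). Hdac3, the catalytic subunit of the NCoR and SMRT complexes, had 11.8 ± 0.873 CPM in KO and 13.5 ± 1.39 CPM in WT (adjusted p = 0.337). Hdac8, an X-linked gene whose product deacetylates cohesin, had 8.02, 11.5 and 6.05 CPM in KO and 10.9, 10.8 and 10.7 CPM in WT. KO replicate 2 was above the WT libraries and the other two below, and without it the log2 fold change was -0.61 (adjusted p = 0.0366) in place of -0.34 (0.277). The class sum was 56.8 ± 2.29 CPM in KO and 57.2 ± 2.99 CPM in WT.

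Of the class II and IV genes, 1 of 5 tested was higher and none lower. Hdac6 (ENSMUSG00000031161), an X-linked gene for the cytoplasmic deacetylase of tubulin, had 20.2, 26.8 and 19.4 CPM in KO and 16.8, 15.7 and 13.1 CPM in WT. KO replicate 2 was the highest and the groups did not overlap (log2 fold change 0.54 ± 0.16, adjusted p = 0.0319). The call was lost without KO replicate 2 (adjusted p = 0.0849) and without WT replicates 1, 2 and 3 (0.054, 0.0788 and 0.124). Hdac11, the class IV gene, had 1.98, 1.07 and 1.92 CPM in KO and 1.07, 0.340 and 0.709 CPM in WT. These are 179 counts over the KO libraries and 78 over the WT libraries, and the fold change had a wide error (1.22 ± 0.46, adjusted p = 0.0720). It passed with the replicate block (adjusted p = 0.0361), and 15.4% of its exon bases overlap an opposite-strand gene model.

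Hdac4 had 11.8 ± 2.05 CPM in KO and 9.84 ± 1.26 CPM in WT, and Hdac9 had 10.5 ± 0.470 CPM in KO and 10.3 ± 0.357 CPM in WT. Both are class IIa genes, whose products repress transcription mainly through bound corepressors, and neither passed (adjusted p = 0.312 and 0.932). For Hdac4, 22.4% of the exon bases overlap a gene model on the opposite strand. Hdac10, a polyamine deacetylase gene, stayed under 0.5 CPM in every library. The other class IIa genes were near silent and not tested. Hdac5 had 16 counts over the KO libraries and 12 over the WT libraries. Hdac7 had 0 counts in KO, which allows up to 0.0272 CPM at 3 counts over the group, and 9 counts in WT. Such limits cover counting error only.

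The sirtuins are deacylases that consume NAD, and 2 of 7 were higher, 1 lower and 4 did not pass, beside 14.9% of all genes higher and 18.5% lower. Their summed level was 165 ± 4.33 CPM in KO and 141 ± 2.84 CPM in WT, with no overlap. Sirt2 (ENSMUSG00000015149), whose product deacetylates tubulin and histone H4 and moves between cytoplasm and nucleus, had 21.7, 22.5 and 20.7 CPM in KO and 11.9, 8.91 and 10.2 CPM in WT. The lowest KO library was well above the highest WT library. The level was 2.09-fold higher (log2 fold change 1.06 ± 0.14, adjusted p = 0.000709), and Sirt2 passed under all 17 alternatives, where its log2 fold change ran from 0.96 to 1.17. An overlap with Nfkbib on the opposite strand takes 0.834% of its exon bases.

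Sirt5 (ENSMUSG00000054021), the mitochondrial desuccinylase gene, had 19.3, 23.2 and 21.3 CPM in KO and 14.0, 15.4 and 16.8 CPM in WT. The groups did not overlap (log2 fold change 0.47 ± 0.13, adjusted p = 0.0240). The call was lost without KO replicate 2 (adjusted p = 0.0616), WT replicate 1 (0.0975) or WT replicate 2 (0.0734). Sirt1 (ENSMUSG00000020063), the nuclear deacetylase of histones and transcription factors, was lower, with 30.5, 29.4 and 29.7 CPM in KO and 40.6, 35.9 and 35.8 CPM in WT. WT replicate 1 was the highest, and no KO library reached the WT range (log2 fold change -0.33 ± 0.10, adjusted p = 0.0311).

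The call of Sirt1 was the least stable of the 10. With offsets for GC content and length its log2 fold change was -0.14 (adjusted p = 0.323). Its longest annotated transcript had the lowest GC content among those of the 10 called members (44.0%). The Sirt1 call was also lost without KO replicates 1 and 2 (adjusted p = 0.0707 and 0.0704), without WT replicates 1, 2 and 3 (0.116, 0.0603 and 0.0658) and with the replicate block (0.061).

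The remaining sirtuins had positive fold changes that did not pass. Sirt7, the nucleolar form, had 55.7, 53.5 and 55.5 CPM in KO and 46.8, 47.7 and 47.4 CPM in WT. Its libraries were tight and did not overlap (log2 fold change 0.21 ± 0.08, adjusted p = 0.0664). Of the annotated exon bases of Sirt7, 2.41% are shared with Mafg on the same strand. Sirt6, a deacetylase gene of telomeric chromatin and DNA repair, had 20.5 ± 1.41 CPM in KO and 16.6 ± 2.21 CPM in WT (0.30 ± 0.14, adjusted p = 0.128). The mitochondrial genes Sirt3 and Sirt4 had 2.77 ± 0.826 and 14.4 ± 1.47 CPM in KO, and 1.54 ± 0.448 and 12.5 ± 0.730 CPM in WT (adjusted p = 0.0849 and 0.304). Exons of Sirt3 overlap those of Psmd13 and Ric8a on the opposite strand, by 5.73% and 6.998% of its bases.

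Of the reader genes described here, Brd1 and Brd8 passed, where 33.4% of all tested genes were called. BET proteins carry paired bromodomains that bind acetylated histones and recruit the transcription machinery. None of the BET genes described here passed.

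Brdt, the BET gene known for its role in male germ cells, had 455, 466 and 445 CPM in KO and 399, 415 and 406 CPM in WT, with KO above WT throughout (log2 fold change 0.16 ± 0.06, adjusted p = 0.0714). It passed in 4 of 17 alternatives, including DESeq2 (adjusted p = 0.0346) and the GC and length offsets (0.33, adjusted p = 0.00384). Brd2 had 79.0 ± 9.58 CPM in KO and 83.7 ± 3.58 CPM in WT, and Brd3 had 29.4 ± 2.32 CPM in KO and 32.5 ± 2.40 CPM in WT (adjusted p = 0.567 and 0.350). Brd3os, which shares its name with Brd3 and lies by it, stayed under 1 CPM in every library.

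Of the 4 other Brd genes, 1 was higher and 1 lower, beside 14.9% of all genes higher and 18.5% lower. Brd8 (ENSMUSG00000003778), the bromodomain subunit of NuA4, had 19.98, 19.7 and 22.1 CPM in KO and 31.8, 31.0 and 28.5 CPM in WT. The groups were well separated, and the level was 1.48-fold lower (log2 fold change -0.56 ± 0.11, adjusted p = 0.00452). It lost its call under the test against a 1.5-fold change alone among the 17 alternatives (adjusted p = 0.878). Brd1 (ENSMUSG00000022387) encodes BRPF2, a scaffold of KAT6 and KAT7 complexes, and had 289.6, 271 and 321 CPM in KO and 238, 266 and 232 CPM in WT. KO replicate 2 was only just above WT replicate 2 (log2 fold change 0.26 ± 0.09, adjusted p = 0.0489). This borderline call was lost in 10 of 17 alternatives, among them those without KO replicate 1 (0.0843), KO replicate 3 (0.0935), WT replicate 1 (0.156) or WT replicate 3 (0.189), and with the replicate block (0.0939). Brd7 and Brd9, subunit genes of different SWI/SNF complexes, did not pass. Brd7 had 86.9 ± 2.35 CPM in KO and 86.5 ± 1.26 CPM in WT, and Brd9 had 52.3 ± 0.177 CPM in KO and 47.3 ± 4.98 CPM in WT (adjusted p = 0.947 and 0.288).

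The last 3 members were processed pseudogenes with too few counts to test. Kat2b-ps had 1 count over the KO libraries and 14 over the WT libraries. Kat6b-ps1 had 2 counts in each group, and Kat6b-ps2 had 4 in KO and 6 in WT. Their reads can be shared with the near-identical parent genes, so these counts are uncertain.

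To compare levels between genes, CPM were divided by the annotated exon length in kilobases. Brdt (89.0 ± 2.08 CPM per kilobase in KO, 79.5 ± 1.58 in WT), Kat14 (58.9 ± 3.15 in KO, 56.1 ± 0.877 in WT), Kat8 (50.5 ± 4.60 in KO, 40.7 ± 1.58 in WT) and Brd1 (34.9 ± 2.99 in KO, 29.2 ± 2.19 in WT) were abundant and stood in the same order in both genotypes. The ranks that differed most between genotypes were those of 4 called genes. Kat6a ranked 21 in KO and 13 in WT, Kat6b ranked 15 in KO and 9 in WT, Sirt1 ranked 18 in KO and 12 in WT, and Sirt2 ranked 20 in KO and 27 in WT. Among the deacetylases Sirt7 was the most abundant per kilobase (10.7 ± 0.235 in KO, 9.19 ± 0.0906 in WT).

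**Figure D3:**
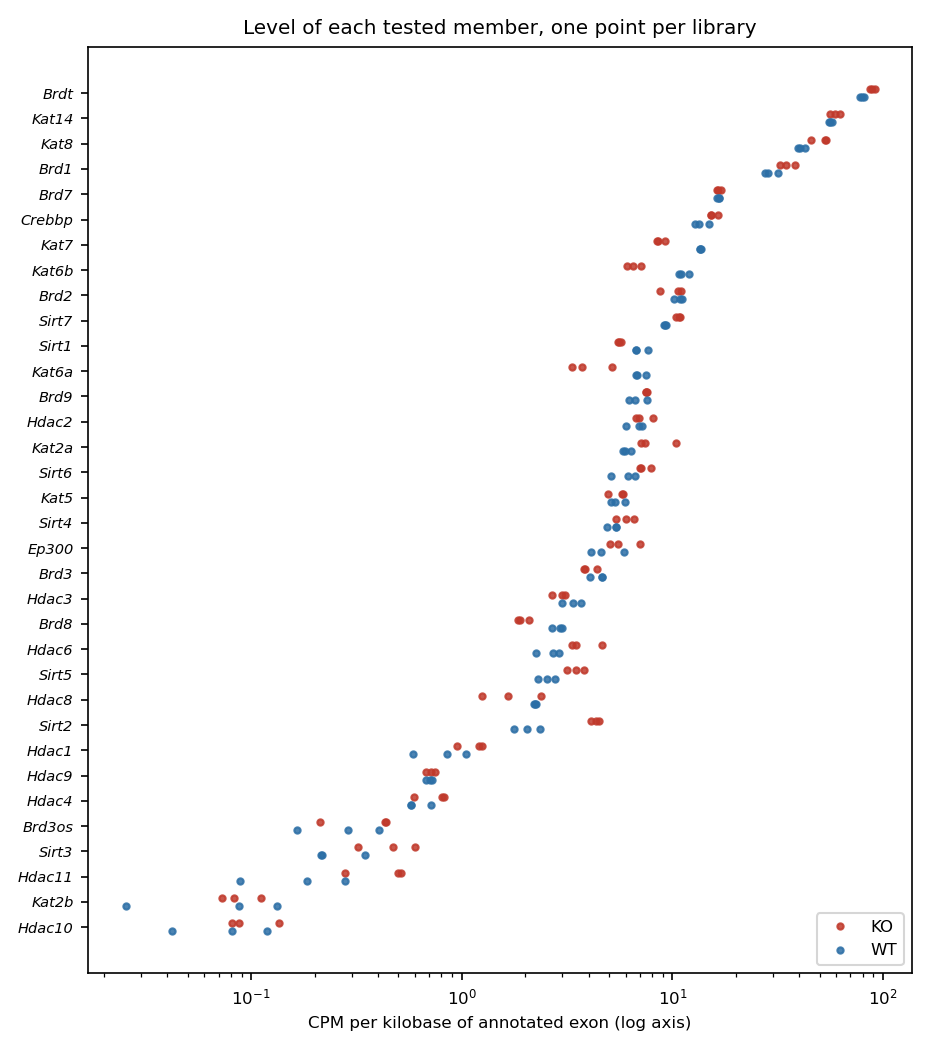
Level of 34 tested members in CPM per kilobase of annotated exon (x axis, log scale), 1 point per library, KO in red above WT in blue, ordered by the WT mean (y axis). Brdt stands at the top with a mean of 89.0 in KO, and Kat2b and Hdac10 at the bottom near 0.1.

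Paralogs within a library need no scaling factor to compare. The log2 ratio of Kat6a to Kat6b was -1.58 ± 0.22 in KO and -1.56 ± 0.14 in WT (exact two-sided permutation p = 0.9), while both genes were lower in KO. The ratio of Ep300 to Crebbp was -1.35 ± 0.29 in KO and -1.43 ± 0.38 in WT (exact p = 0.8), and that of Hdac1 to Hdac2 was -3.06 ± 0.23 in KO and -3.43 ± 0.49 in WT (exact p = 0.5). Kat2a to Kat2b (6.01 ± 0.57 in KO, 5.94 ± 1.16 in WT) and Hdac4 to Hdac5 (6.25 ± 0.36 in KO, 6.74 ± 1.09 in WT) had exact p-values of 1.0 and 0.6. None of the 5 ratios differed beyond the spread between libraries, with adjusted p = 1.0 throughout by exact permutation. The smallest p that 3 against 3 libraries allow is 0.1, so these tests could not have passed 0.05.

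Transcript features were set beside the fold changes as a description. In the annotated principal transcripts, the 3′ UTRs of the 5 lower members were 1260 to 2617 bases long (median 1567) and those of the 5 higher members 186 to 1263 bases (median 391). The 2 ranges barely met, through Brd1 and Kat6b. Over all tested protein-coding genes the median length was 796 bases for higher genes and 1573 for lower genes, so that the same order held across the transcriptome. Sirt1 was the only one of the 10 with a cytoplasmic polyadenylation element (TTTTAT or TTTTAAT, searched on the transcript strand) in the last 100 bases. It was present in 4 of the 25 members that did not pass and in 19.6% of 12450 protein-coding genes. A polyadenylation signal (AATAAA or ATTAAA) lay within the last 50 bases in all 5 lower genes, in 4 of the 5 higher genes and in 79.0% of all genes, with Kat8 the exception.

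**Figure D4:**
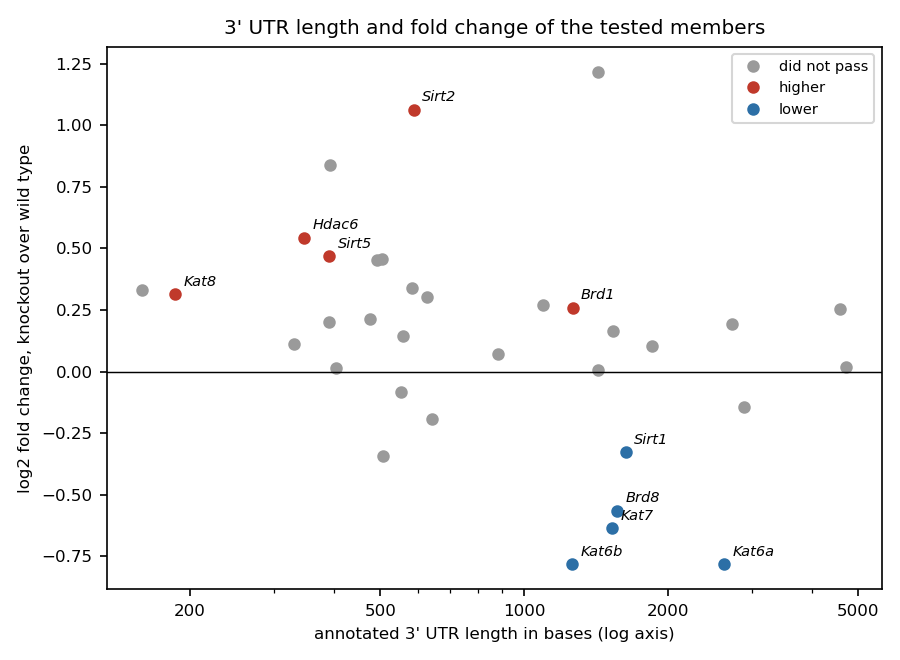
Annotated 3′ UTR length in bases (x axis, log scale) against the log2 fold change of KO over WT (y axis) for 34 tested members. The 5 lower genes (blue) lie between 1260 and 2617 bases, and 4 of the 5 higher genes (red) lie to their left, with Brd1 beside Kat6b.

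GC content moved with direction too. In the longest annotated transcript of each gene, the higher members had 47.4% to 54.2% GC (median 52.6%). The lower members had 44.0% to 50% (median 47.5%), beside a median of 48.6% over all tested genes. Across the 35 members Spearman's rho between log2 fold change and GC content was 0.42, and across 16430 genes it was 0.20. These points share libraries, and genes are not independent replicates. With offsets for GC content and length, 7 members were higher and 4 lower. Sirt1 was the call lost, and Brdt and Sirt3 (adjusted p = 0.0496) were the calls gained.

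Most of these enzymes act in complexes with the products of other genes. Of 48 tested subunit genes of acetyltransferase complexes, 16 were higher, 13 lower and 19 did not pass (median log2 fold change 0.12). That is 60.4% called, against 33.4% of all tested genes and 43.8% of genes with a mean of at least 5 CPM. Supt20, a SAGA core subunit, had 472 ± 91.9 CPM in KO and 193 ± 15.5 CPM in WT (log2 fold change 1.29 ± 0.13, adjusted p = 0.000175). Msl1, the scaffold of the MSL complex around MOF, had 218 ± 18.8 CPM in KO and 143 ± 11.7 CPM in WT (0.61 ± 0.09). Ruvbl2, an ATPase of NuA4, had 129 ± 5.62 CPM in KO and 94.9 ± 5.73 CPM in WT (0.45 ± 0.08), and did not pass with GC and length offsets (adjusted p = 0.0557).

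Among the lower subunit genes, Usp22, the SAGA deubiquitinase, had 9.05, 9.61 and 13.8 CPM in KO and 37.9, 34.6 and 32.9 CPM in WT. The highest KO library was far under the lowest WT library (log2 fold change -1.70 ± 0.17, adjusted p = 0.000173). Tada1, another SAGA core subunit, had 0.911 ± 0.173 CPM in KO and 3.98 ± 0.475 CPM in WT (-2.12 ± 0.27). Phf20, a reader in the NSL complex of MOF, had 238 ± 12.8 CPM in KO and 348 ± 6.995 CPM in WT (-0.55 ± 0.07). The number of higher genes in this list was 9 without WT replicate 1 or WT replicate 3.

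By complex, a grouping made after the values were seen, SAGA and ATAC subunits had 5 of 19 genes higher and 6 lower. NuA4 subunits had 8 of 16 higher and 4 lower. Over all tested genes 14.9% were higher and 18.5% lower, and at a mean of at least 5 CPM 20.8% and 23.0%. The NuA4 count leaves out Brd8, which was lower, and Kat5, which did not pass. MSL and NSL subunits had 3 of 8 higher (Msl1, Msl3 and Mcrs1) and 2 lower (Msl2 and Phf20). For the KAT6 and KAT7 complexes, whose catalytic genes were lower, 1 of 7 tested scaffold and reader genes beside Brd1, which is described above as higher, was higher and 1 lower. Meaf6, the small subunit shared with NuA4, was the higher one of the 7 (log2 fold change 0.55 ± 0.11, adjusted p = 0.00526), and the reader gene Ing5 was the lower one (-0.34 ± 0.10, adjusted p = 0.0275). Jade2, the most abundant of these scaffold genes in CPM, had 416 CPM in KO and 420.0 CPM in WT (adjusted p = 0.921).

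Of 17 other genes with established or only reported acetyltransferase activity, 2 were higher, 7 lower and 8 did not pass (median -0.21). That is 52.9% called, against 33.4% of all tested genes and 43.8% of genes with a mean of at least 5 CPM. Clock, the circadian factor with reported acetyltransferase activity, had 41.2 ± 2.96 CPM in KO and 77.0 ± 7.18 CPM in WT (-0.90 ± 0.10, adjusted p = 0.000275). Gtf3c4, a TFIIIC subunit, had 0.938 ± 0.164 CPM in KO and 3.87 ± 0.406 CPM in WT (-2.04 ± 0.26), and Atf2, a DNA-binding transcription factor, had 49.3 ± 2.32 CPM in KO and 75.4 ± 1.46 CPM in WT (-0.61 ± 0.08). The higher pair were the coactivator Ncoa2 (0.34 ± 0.08) and the tubulin acetyltransferase Atat1 (0.57 ± 0.16, adjusted p = 0.0253), whose mark HDAC6 and SIRT2 remove. Ncoa2 was lost without WT replicate 3 (adjusted p = 0.0571). Atat1 was lost without KO replicate 3 (0.0556) and without WT replicates 1, 2 and 3 (0.096, 0.0558 and 0.0567).

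Of 39 tested subunit genes of deacetylase complexes, 15 were higher, 7 lower and 17 did not pass (median 0.19). Of the list 56.4% were called, 38.5% were higher and 17.9% lower, against 33.4%, 14.9% and 18.5% of all tested genes. Among genes with a mean of at least 5 CPM, 43.8% were called, 20.8% were higher and 23.0% lower. The SIN3 subunits Ing1 and Sap30 were higher. Ing1 had 265 ± 28.2 CPM in KO and 172 ± 4.59 CPM in WT (0.62 ± 0.09), and Sap30 had 187 ± 6.34 CPM in KO and 135 ± 5.68 CPM in WT (0.47 ± 0.07). Mbd3, a core subunit of NuRD, had 28.8, 24.8 and 24.5 CPM in KO and 15.3, 11.3 and 13.2 CPM in WT, without overlap (0.97 ± 0.15, adjusted p = 0.0013). The lower genes were led by Tbl1xr1, an exchange factor of the NCoR complex, with 11.3 ± 1.32 CPM in KO and 37.7 ± 3.60 CPM in WT (-1.74 ± 0.13, adjusted p = 4.47e-05). Mier3 had 54.8 ± 5.15 CPM in KO and 106 ± 8.09 CPM in WT (-0.95 ± 0.10), and the SIN3 subunit gene Brms1l had 7.71 ± 0.885 CPM in KO and 19.0 ± 0.961 CPM in WT (-1.30 ± 0.14). Without WT replicate 3 the number of higher genes was 9. By complex, again a grouping made after the values were seen, SIN3 subunits had 8 of 14 genes higher and 2 lower. NuRD subunits had 4 of 11 higher and 2 lower, with Rbbp4 counted as higher in both SIN3 and NuRD. CoREST subunits had 3 of 7 higher and 1 lower.

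**Figure D5:**
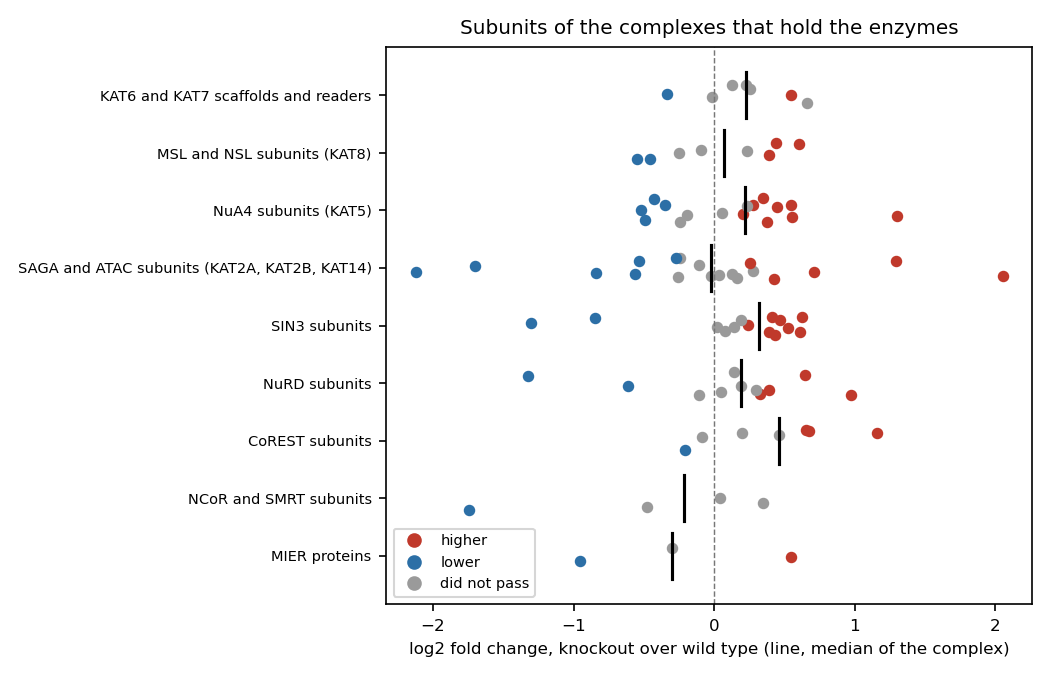
Log2 fold change of KO over WT (x axis) of each tested subunit gene, by complex (y axis, points spread vertically at random so that they can be seen), with the median of a complex as a black line. Higher genes are red and lower genes blue, and both colours occur in every complex but NCoR and SMRT, where Tbl1xr1 is the 1 called gene.

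Of 25 other bromodomain genes, 1 was higher, 6 lower and 18 did not pass (median -0.04). That is 28% called, against 33.4% of all tested genes and 43.8% of genes with a mean of at least 5 CPM. Phip, a gene for a chromatin reader with WD repeats, had 24.8 ± 2.83 CPM in KO and 56.9 ± 2.50 CPM in WT (-1.20 ± 0.11, adjusted p = 9.59e-05). Trim24, a coregulator gene, had 96.8 ± 8.44 CPM in KO and 180.3 ± 9.73 CPM in WT (-0.90 ± 0.09), and Cecr2, a remodeller subunit gene, had 132 ± 5.49 CPM in KO and 211 ± 5.74 CPM in WT (-0.67 ± 0.07). The 1 higher gene was Kmt2a, a histone methyltransferase gene, with 2.95, 0.912 and 7.39 CPM in KO and 0.944, 1.16 and 0.894 CPM in WT. KO replicate 2 lay within the WT range, and the call (adjusted p = 0.045) was lost without KO replicate 1 (0.0632), KO replicate 3 (0.183), or WT replicates 1, 2 and 3 (0.124, 0.1003 and 0.127), as well as in limma-voom (0.176) and with the replicate block (0.112). With GC and length offsets 5 genes of this list were higher.

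Acetyltransferases use acetyl-CoA and sirtuins use NAD. Of 13 tested genes of acetyl-CoA and NAD metabolism, supply and use alike, 5 were higher, 1 lower and 7 did not pass. Over all tested genes 14.9% were higher and 18.5% lower, and at a mean of at least 5 CPM 20.8% and 23.0%. Acly, the enzyme that makes cytosolic acetyl-CoA from citrate, had 181 ± 18.8 CPM in KO and 103 ± 6.92 CPM in WT (0.82 ± 0.10, adjusted p = 0.000339). Slc25a1, the mitochondrial citrate exporter gene, had 44.8 ± 6.71 CPM in KO and 30.5 ± 1.71 CPM in WT (0.55 ± 0.12), and did not pass with GC and length offsets (adjusted p = 0.105). Nadk2, a mitochondrial NAD kinase gene, had 15.1 ± 2.55 CPM in KO and 8.20 ± 0.843 CPM in WT (0.88 ± 0.17). Nmnat3, a mitochondrial NAD synthesis gene, was the lower one, with 1.77 ± 0.471 CPM in KO and 4.02 ± 0.0794 CPM in WT (-1.18 ± 0.26, adjusted p = 0.00818). Without WT replicate 1 or WT replicate 3, 3 genes of this list were higher.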

How the data were processed

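Each library came with its own table of raw counts per gene, as the authors deposited them. The submitters' processing notes name STAR 2.7.8a, HTSeq 0.13.5, cutadapt 2.8, bcl2fastq 2.20.0.422 and the build mm39. The sources used here give no annotation release, strand setting or read filter, so counts of overlapping genes and near-identical copies are uncertain. Per the labels' protocols, libraries were made from 10 oocytes with a QIAseq FX single-cell kit.

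Genotypes were taken from the labels. KO was tested against WT with the two-sided quasi-likelihood F test of edgeR 4.0.16 (R 4.3.3), after filterByExpr and TMM scaling. The Benjamini-Hochberg adjustment ran over 16473 genes, with 0.05 as the threshold. These steps were first tested on simulated data. Standard errors are the absolute log2 fold change over the square root of F. At 32126555 to 39148833 counts per library, 10 counts lie below 1 CPM. Ratios of paralogs used counts plus 0.5 (scipy 1.17.1). Same-genotype libraries differed by more than sampling noise, so none was counted as a duplicate. Exon length, GC content and 3′ UTRs came from GENCODE M21 (GRCm38), and since its build differs from mm39 no coordinates are printed.

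The members and gene lists were chosen with earlier results of these data known. The results of 1 member are not reported here, though it stays in counts and sums over all members. The other members are named, and from each partner list up to 3 higher and 3 lower genes with the smallest adjusted p. Meaf6, Ing5, Jade2, Msl2, Msl3 and Mcrs1 were named after their values were seen. Alternatives were other scaling factors and filters, DESeq2 1.42.0, limma-voom (limma 3.58.1), a replicate block, a threshold of 0.01, a null of 1.5-fold change, offsets for GC content and length, and leaving out each library.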

Additional observations from a re-analysis of the deposited data

How the results depend on the processing

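Of the 35 tested members none turned direction where it was called. With the main settings 5 members were higher and 5 lower, and 9 were higher with upper-quartile factors and 8 with DESeq2. The test against a 1.5-fold change left 1 member higher and 0 lower. An adjusted p of 0.01 left 1 higher, and kept Kat6a, Kat6b, Kat7 and Brd8 as lower. Leaving out 1 library gave 1 to 5 higher members, and the lower calls of Kat6a, Kat6b, Kat7 and Brd8 held each time. Over all genes, 2448 were higher and 3051 lower, against 417 and 1067 in the test against a 1.5-fold change, 1171 and 1861 at an adjusted p of 0.01, and 1541 to 2509 higher genes when 1 library was left out. Calls were 44.5% higher, and 28.1% higher in the test against a 1.5-fold change. No scaling moved the median log2 fold change of all genes by more than 0.05. The cause of these differences was not tested, apart from the stricter threshold, the stricter null and the smaller number of libraries that define 3 of these settings. Same-numbered libraries did not deviate together (correlations of -0.01, -0.04 and -0.03, beside -0.02 to 0.04 for other pairs of KO and WT libraries). Only a strong shared effect would show in this check, so whether same-numbered pools shared animals or a day stays unknown. With the replicate block 4 members were higher and 4 lower, and 2078 and 2760 of all genes. Members under 1 CPM, Kat2b, Hdac10 and Brd3os, rest on 29 to 75 counts per group, and a difference there was not detectable at this depth unless large.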
